A study of Mus musculus with 63 samples.

Results

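The Reg family lectins measured here were Reg1, Reg3a, Reg3b, Reg3g and Reg4, 5 of the 54752 mouse genes in each count table, taken by gene name. They were followed in every comparison of an RNA-Seq study of intestinal epithelium lacking the Mediator kinases CDK8 and CDK19, in 57 libraries that fall into 19 groups of 3. Intestinal epithelial cells (IECs) came from mice of the C57BL/6 strain that were VillinCreERT2, or VillinCreERT2 with Cdk8 fl/fl and Cdk19 ko/ko (DKO), and both genotypes had 5 daily injections of tamoxifen at 80 mg/kg, with cells taken 14 days after the last one. Small intestinal organoids, epithelial cultures grown in Matrigel, were exposed for 24 h to 100 nM 4-hydroxytamoxifen (4-OHT), which activates CreERT2, or to 0.001% ethanol (EtOH).

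At day 7, 5 organoid lines were compared, each given 4-OHT: VillinCreERT2, C57BL/6, CDK8KO (VillinCreERT2 with Cdk8 fl/fl), CDK19KO (Cdk8 fl/fl with Cdk19 ko/ko and no Cre) and DKO. A time course followed a line of the DKO genotype in EtOH or 4-OHT at days 3, 5, 7 and 10, and the same line was grown in Wnt3 conditioned medium (Wnt3-CM) to day 10. In a further line, D173A, VillinCreERT2 and Cdk8 fl/fl were joined to 1 Cdk19 ko allele and 1 kinase-dead Cdk19 D173A allele, in EtOH or 4-OHT at day 7. Cdk19 was knocked out in both arms of the time course and in Wnt3-CM, so that 4-OHT added the loss of Cdk8 to the loss of Cdk19. No 4-OHT arm without floxed Cdk8 was part of the time course, so the exposure to 4-OHT with active Cre and the deletion of Cdk8 cannot be told apart there. Within each experiment an organoid genotype was 1 line, so genotype and line cannot be told apart between lines. The 3 libraries of a group are cultures of that line. DKO at day 7 was another line than in the time course and Wnt3-CM, and these DKO lines were not tested against each other.

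Reg proteins are small secreted C-type lectins of the gut and pancreas. Reg3g and Reg3b bind bacterial surfaces and hold microbes away from the epithelium, and IL-22 acting through STAT3, as well as microbial signals, is known to raise them. Reg1 was first described in regenerating pancreatic islets and is also made in the small intestine, Reg3a is a close relative of Reg3b and Reg3g, and Reg4 is known from enteroendocrine cells of the small intestine and deep crypt secretory cells of the colon. In organoids immune markers were near the floor: 7 of 8 were below 1 CPM (counts-per-million) in every organoid library, and the highest value of the list was 1.21 CPM, for Lyz2. The supply of IL-22 was not tested.

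In the mm10 assembly (GRCm38, GENCODE vM21), Reg3b (ENSMUSG00000071356) lies at chr6:78370657-78373466 on the plus strand, Reg3a (ENSMUSG00000079516) at chr6:78380709-78383827 on the plus strand, Reg1 (ENSMUSG00000059654) at chr6:78422711-78428667 on the plus strand and Reg3g (ENSMUSG00000030017) at chr6:78466269-78468872 on the minus strand. Together with Reg2 and Reg3d they form a cluster of 6 genes within 98.2 kb. Reg4 (ENSMUSG00000027876) lies apart at chr3:98222156-98236748 on the plus strand. The coding sequences of Reg3b and Reg3g were 76.4% identical, those of Reg3a and Reg3b 73.3%, and Reg4 was 54.1% to 56.3% identical to the others. The longest exact stretch shared between members was 35 bases, in Reg3b and Reg3g, which is shorter than the 100-base reads.

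The sequences just before the RefSeq start of the 3 Reg3 genes and of Reg4 are shown because the Reg3 genes were called lower in 4-OHT at day 3 of the time course and Reg4 was not (RefSeq, GRCm38.p6, written 5′ to 3′ on the strand of the gene). Capitals mark matches, on either strand, to a TATA box (TATAAA), a STAT site (TTCNNNGAA), an E-box (CAGNTG) or a CDX site (TTTATG), and none of the matches in these windows overlapped another.
Reg3b, chr6:78370710-78370884, plus strand: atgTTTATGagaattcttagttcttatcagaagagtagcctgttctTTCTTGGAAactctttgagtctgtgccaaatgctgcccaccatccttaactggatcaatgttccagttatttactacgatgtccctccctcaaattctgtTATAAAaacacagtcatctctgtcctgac
Reg3g, chr6:78468875-78469049, minus strand: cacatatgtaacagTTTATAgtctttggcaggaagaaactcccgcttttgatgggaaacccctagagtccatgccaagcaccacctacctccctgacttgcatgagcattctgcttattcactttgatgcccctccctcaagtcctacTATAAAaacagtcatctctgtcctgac
Reg3a, chr6:78380534-78380708, plus strand: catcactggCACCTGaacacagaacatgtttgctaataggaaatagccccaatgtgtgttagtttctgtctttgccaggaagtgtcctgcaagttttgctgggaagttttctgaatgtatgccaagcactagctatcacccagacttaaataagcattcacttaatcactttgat
Reg4, chr3:98221981-98222155, plus strand: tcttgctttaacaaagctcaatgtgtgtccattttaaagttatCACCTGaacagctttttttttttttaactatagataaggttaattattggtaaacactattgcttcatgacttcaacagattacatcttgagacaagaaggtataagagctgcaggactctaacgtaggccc

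Over the full search window of 300 bases, 250 of them before the start, TATAAA was found in 3 of the 5 members and in 13.6% of 32851 mouse promoters. It began 29 bases before the start of Reg3b, 27 before that of Reg3g and 30 before that of Reg1. TTCNNNGAA was found in 1 member, 129 bases before the start of Reg3b, and in 8.3% of promoters. CAGNTG was found in 4 members, Reg3g being the exception, and in 51.4% of promoters, and TTTATG in Reg3b and Reg3a and in 11.9%. Of the Reg3b window, 24 bases lie within a GENCODE exon, since GENCODE places the start of that gene further upstream.

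Library totals ran from about 15486000 to about 32909600 counts. Over the 57 libraries Reg3b had the widest range, 0.191 to 7922 CPM, and Reg4 the narrowest, 39.7 to 257 CPM. Reg2 and Reg3d, the remaining genes of the cluster, had at most 24 and 84 counts in a library. Counts of Cdk8 were taken over the whole gene and cannot check the deletion of the floxed exon: Cdk8 stood at 78.0 to 83.1 CPM in CDK8KO and 71.9 to 80.8 CPM in VillinCreERT2 organoids. CPM are scaled within each experiment, and a gene was called changed at an edgeR adjusted p under 0.05 with a fold change over 1.5.

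Compared per kilobase of transcript, the order of the members differed between tissue and culture. In VillinCreERT2 IECs Reg3b and Reg3g led, with mean levels of 7097 and 4291 CPM per kb and overlapping libraries, followed by Reg1 at 830 and by Reg3a and Reg4, which overlapped at 102 and 89.4. In VillinCreERT2 organoids each member overlapped the next in the order, from Reg1 at 155 CPM per kb down to Reg3b at 59.9. In the vehicle arm of the time course at day 3 Reg3g led at 237 CPM per kb, and no member overlapped the next down to Reg1, at 4.02.

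The time course asked how expression changed as the days passed after deletion. At day 3, 4 of the 5 members were called lower in 4-OHT and none higher, where 12.4% of 15447 genes were called in either direction and 5.95% were called lower. By day 5 none of the 5 was called lower except Reg4, and at days 7 and 10 Reg3g was called higher. The 4 members of the chromosome 6 cluster and Reg4 thus had different courses.

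Reg3g, which kills Gram-positive bacteria, stood at 207, 163 and 178 CPM in EtOH and at 27.1, 31.8 and 26.0 CPM in 4-OHT at day 3. The groups did not overlap, and the log2 fold change was -2.69 ± 0.26 (SE), edgeR adjusted p = 3.4e-07. At day 7 the order was turned: EtOH libraries held 38.3, 41.7 and 47.2 CPM of Reg3g and 4-OHT libraries 200, 152 and 106 CPM. This was a log2 fold change of 1.85 ± 0.25 with an adjusted p of 1.1e-05. At day 10 Reg3g was still higher in 4-OHT, at 123, 160 and 131 CPM against 59.5, 87.0 and 88.5 CPM, a log2 fold change of 0.82 ± 0.24 (adjusted p = 0.010). That call was lost without replicate 1 of EtOH at day 10 (adjusted p = 0.056). Part of the swing lay in the vehicle arm, where Reg3g fell by 1.22 on the log2 scale from day 3 to day 10 (adjusted p = 2.4e-04).

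Reg3b, which binds both Gram-negative and Gram-positive bacteria, had the largest change of the members at day 3. It stood at 16.9, 14.1 and 14.1 CPM in EtOH and at 0.879, 1.86 and 0.191 CPM in 4-OHT, the last values resting on 18, 39 and 4 counts. The log2 fold change was -3.93 ± 0.41 (adjusted p = 6.1e-07), a 15.3-fold lower level. At day 5 Reg3b was 6.93, 3.8 and 6.18 CPM in EtOH and 12.9, 11.6 and 7.87 CPM in 4-OHT, without overlap (log2 fold change 0.94 ± 0.32, adjusted p = 0.028). This call was lost when any of 4 libraries was left out, replicates 2 and 3 of EtOH or replicates 1 and 2 of 4-OHT, with adjusted p from 0.055 to 0.12. At day 7 the Reg3b libraries of the arms overlapped, at 6.20 to 8.58 and 4.98 to 12.1 CPM (adjusted p = 0.69). At day 10, 30.5, 36.8 and 32.8 CPM in EtOH stood beside 26.8, 32.8 and 26.1 CPM in 4-OHT, with the highest 4-OHT library level with the middle of the EtOH ones (adjusted p = 0.52).

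Reg3a stood at 77.8, 66.2 and 73.5 CPM in EtOH and at 19.4, 25.0 and 22.9 CPM in 4-OHT at day 3, a log2 fold change of -1.69 ± 0.19 (adjusted p = 1.6e-06). At day 7 it stood at 70.1, 87.5 and 74.8 CPM in EtOH and at 190, 169 and 143 CPM in 4-OHT, 2.16-fold higher without overlap (adjusted p = 4.4e-05). The course of Reg3a was therefore low and then high in 4-OHT, as for Reg3g. At day 10 the difference had an adjusted p of 0.0099, but its fold change of 1.498 lay just under the cutoff. It passed when any of 3 libraries was left out, EtOH replicate 2 or 3 or 4-OHT replicate 1, with log2 values of 0.66 to 0.70, and it also passed by limma-voom at 0.59 (adjusted p = 0.0012) and under a stricter filter, 10 counts or more in each library, at 0.60 (adjusted p = 0.0056).

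Reg1 was low throughout this line, at 0.293 to 9.56 CPM. At day 3 it was 3.62, 3.4 and 3.88 CPM in EtOH and 0.293, 0.334 and 0.478 CPM in 4-OHT, the latter resting on 6 to 10 counts (log2 fold change -3.28 ± 0.40, adjusted p = 2.8e-07). Reg1 was called higher at day 5 (1.03 ± 0.33, adjusted p = 0.015) and at day 7 (0.82 ± 0.31, adjusted p = 0.030). Both calls depended on single libraries: without replicate 1 of 4-OHT the adjusted p was 0.16 at day 5 and 0.20 at day 7, and 2 other libraries at day 5 and 3 at day 7 had the same effect. At day 10 Reg1 was lower in 4-OHT again, at 2.56, 4.69 and 5.16 CPM against 7.31, 9.56 and 8.42 CPM (-1.02 ± 0.26, adjusted p = 0.0018). It was the only member of the 4 on chromosome 6 called lower at day 10.

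Reg4 took another course. At day 3 its libraries overlapped, at 49.8 to 60.9 CPM in EtOH and 59.6 to 62.2 CPM in 4-OHT (adjusted p = 0.47). At day 7 Reg4 stood at 107, 82.5 and 105 CPM in EtOH and at 48.3, 57 and 59.2 CPM in 4-OHT, a log2 fold change of -0.84 ± 0.11 (adjusted p = 8.3e-07). The difference was -0.69 ± 0.11 at day 5 and -0.70 ± 0.11 at day 10, called at both. In the vehicle arm Reg4 was 1.90-fold higher at day 10 than at day 3 (adjusted p = 5.7e-08), while the 4-OHT libraries lay between 45.5 and 73.2 CPM on all 4 days.

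**Figure D1:**
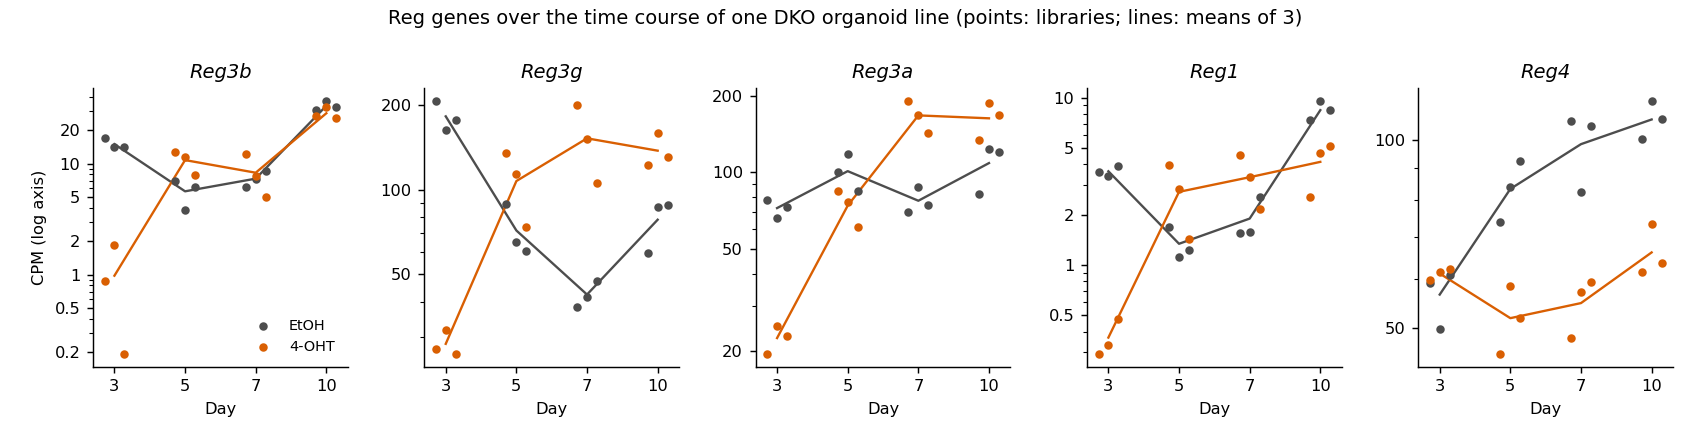
CPM of each member (log axis) against the day of culture in the time course, with 1 point per library and lines through the means of 3, in EtOH and in 4-OHT. At day 3 the 4-OHT points of Reg1, Reg3a, Reg3b and Reg3g lie below the EtOH points, and at day 7 those of Reg3a and Reg3g lie above them, whereas Reg4 separates only from day 5.

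The differences between days were tested themselves. From day 3 to day 5 the effect of 4-OHT rose by 4.87 ± 0.53 on the log2 scale for Reg3b, 4.31 ± 0.53 for Reg1, 3.28 ± 0.35 for Reg3g and 1.24 ± 0.26 for Reg3a, and it fell by 0.80 for Reg4. All 5 were called, beside 20.2% of genes. From day 3 to day 10 all 5 were called as well, beside 26.3% of genes, with Reg3b at 3.71, Reg3g at 3.51, Reg3a at 2.27, Reg1 at 2.26 and Reg4 at -0.82. From day 7 to day 10, where 6.41% of genes were called, Reg1 (-1.84, adjusted p = 0.0021) and Reg3g (-1.03, adjusted p = 0.048) were called. The call of Reg3g was lost when any of 10 of the 12 libraries was left out, with log2 values of -0.78 to -1.15. At the single days, 3 of 5 members were called at day 5, beside 13.2% of genes, 4 of 5 at day 7, beside 18.3%, and 3 of 5 at day 10, beside 15.8%. In the vehicle arm alone, 4 of 5 members were called between days 3 and 10, beside 38.4% of genes.

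Markers of other cell types also changed in this course, some in the direction of the Reg genes and some against it. At day 3, 8 of 10 enterocyte markers were called lower in 4-OHT, among them Slc2a2 (-2.54), Fabp1 (-1.93) and Sis (-1.84), with a median log2 fold change of -1.23 beside -0.02 over all genes. Their summed level was 6117 to 6623 CPM in EtOH and 2698 to 3190 CPM in 4-OHT. Of 11 Paneth cell markers, Mptx2 alone was called at day 3, and it was higher. Regulators of secretory fate summed to 255 to 268 CPM in EtOH and 298 to 313 CPM in 4-OHT at day 3, with none called. Stem cell markers went against the Reg genes at day 3, with a sum of 1908 to 1924 CPM in EtOH and 2318 to 2394 CPM in 4-OHT and 2 of 6 called. At days 5 and 7, when Reg4 was lower, 10 of 11 Paneth markers were called lower, and so were 4 and then 5 of 6 stem cell markers. Of 8 tested goblet cell markers, 2, 1 and 3 were called lower at days 5, 7 and 10. Their sum did not overlap on those days, at 3859 to 4497 CPM in EtOH and 2377 to 2693 CPM in 4-OHT at day 5, 3811 to 4069 CPM and 2974 to 3327 CPM at day 7 and 3922 to 4244 CPM and 2365 to 2637 CPM at day 10. Of 7 markers of the distal small intestine, 1 was called higher and 2 lower at day 3, 3 higher and 1 lower at day 5 and 5 higher and 2 lower at day 7, when Reg3a and Reg3g were higher. Their summed level was 352 to 381 CPM in EtOH and 251 to 286 CPM in 4-OHT at day 3, and 386 to 460 CPM and 536 to 584 CPM at day 7, without overlap on either day. Of 6 tested markers of the proximal small intestine, 4 were called lower at day 3, with a median log2 fold change of -1.13 and a sum of 540 to 583 CPM in EtOH and 269 to 304 CPM in 4-OHT, and 4 were called lower at day 5. At day 7, 1 proximal marker was called higher and 1 lower. Of the 10 enterocyte markers, 2 were called higher and 3 lower at day 5 (median -0.28), and 2 higher and 1 lower at day 7 (median 0.17), when their sum was 8534 to 10482 CPM in EtOH and 11376 to 13094 CPM in 4-OHT. Pancreatic acinar markers, relevant because Reg1 is also a pancreatic gene, overlapped at day 3, at 18.9 to 22.4 CPM in EtOH and 19.3 to 21.7 CPM in 4-OHT, with 1 of 3 tested called higher and 1 lower. At days 5 and 7, when Reg1 was higher, they did not overlap, at 25.7 to 34.7 CPM and 36.7 to 44.3 CPM and then 25.8 to 30.4 CPM and 40.7 to 49.0 CPM, with 1 of 3 called higher on each day. At day 10 they stood at 28.1 to 33.1 CPM and 69.0 to 74.6 CPM, with 2 of 3 called higher. At day 10 all 11 Paneth markers were called lower in 4-OHT, with Itln1 at -2.37, Ang4 at -2.09 and Lyz1 at -1.83, while 4 enterocyte markers were higher and 1 lower. The part of these cell types and regions in the Reg values was not tested, and in bulk samples fewer cells of a type and less RNA per cell cannot be told apart. The enteroendocrine marker list, which covers cells known to make Reg4, was mostly near the floor in this line, with 3 of 13 measurable. Chga was at most 0.309 CPM at day 7, when Reg4 stood at 48.3 to 107 CPM. The list summed to 18.4 to 24.9 CPM in EtOH and 12.2 to 16.4 CPM in 4-OHT at day 5. At day 10 the sums were 10.9 to 12.3 CPM and 8.63 to 9.86 CPM, and 1 gene was called on each of these days. At day 3 they were 28.8 to 33.8 CPM and 26.5 to 28.1 CPM, and at day 7 they overlapped, with no gene called on either day. The part of these cells in the Reg4 values was not tested.

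Genes of the pathway known to induce Reg3b and Reg3g were followed beside them. None of 14 tested cytokine receptor and STAT3 pathway genes was called at day 3 by edgeR, although 7 had an unadjusted p under 0.05, with a median log2 fold change of -0.01 beside -0.02 over all genes. Of 8 tested genes of the IL-22 and IL-17 epithelial response, Duox2 (2.53) and Duoxa2 (2.23), which form a hydrogen peroxide producing oxidase, were called higher at day 3, and 4 of the 8 had an unadjusted p under 0.05. The summed level of this response list was nonetheless lower in every 4-OHT library at day 3, at 2061 to 2070 CPM against 2575 to 2608 CPM, and higher in every one at day 7, at 2278 to 2521 CPM against 1622 to 1825 CPM. Most of the sum was Pigr, the carrier of secreted antibodies across the epithelium, named after its values were seen, at 1881 to 1909 CPM in 4-OHT and 2481 to 2504 CPM in EtOH at day 3 (log2 fold change -0.40, adjusted p = 1.2e-05) and 0.48 higher in 4-OHT at day 7 (adjusted p = 4.7e-07), both under the fold cutoff. Of the response genes, 3 were called at day 7 and 6 had an unadjusted p under 0.05. Of 18 listed microbial sensing genes, 5 were called by edgeR at day 3 and 10 had an unadjusted p under 0.05. At each of days 5, 7 and 10, 3 were called. Their sum was 739 to 750 CPM in EtOH and 755 to 799 CPM in 4-OHT at day 3, and 737 to 794 CPM and 838 to 866 CPM at day 7. The part of this pathway and of microbial sensing in the Reg values was not tested. At day 5 Socs3, a feedback inhibitor of STAT3 signaling, was called higher at 0.93. At day 7, 4 of the 14 pathway genes were called higher, among them Socs1 (2.21), Il17rc (0.82) and Il10rb (0.74). At day 10 Socs1 (1.37) was the only one. Other secreted antimicrobials went down more than up: at day 10, 6 of 10 were called lower, with Pla2g2a at -3.42, Mptx1 at -3.03 and Itln1 at -2.37, and 1 was called higher. The 6 regulators of secretory fate, Atoh1 at -1.16 among them, were all called lower at day 10.

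The day 7 lines addressed the loss of each kinase and of both. Reg3b was lower in both lines with floxed Cdk8 and active Cre than in VillinCreERT2, whereas Reg3a and Reg3g were not lower in DKO. VillinCreERT2 and C57BL/6 were themselves unlike in these genes, and that difference enters each of the comparisons. Between C57BL/6 and VillinCreERT2 organoids 4 of 5 members were called, beside 26.4% of 15125 genes: Reg1 at -3.23 ± 0.26, Reg3b at -2.17 ± 0.33, Reg3a at 1.29 ± 0.11 and Reg3g at 0.66 ± 0.21. The call of Reg3g was lost without replicate 3 of either line, and Reg4 was 1.29-fold higher in C57BL/6, under the cutoff. The lines also differed in sex: Xist stood at 342 to 804 CPM in the control lines and at most 0.458 CPM in CDK8KO, CDK19KO and DKO, where Ddx3y stood at 55.9 to 71.1 CPM. Sex and genotype therefore cannot be told apart in any comparison of a knockout line with its control line.

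Reg3b stood at 51.5, 59.1 and 30.0 CPM in VillinCreERT2, at 8.27, 7.64 and 3.58 CPM in CDK8KO and at 8.22, 10.7 and 7.92 CPM in DKO. Neither line overlapped VillinCreERT2, and the log2 fold changes were -2.85 ± 0.34 in CDK8KO (adjusted p = 1.2e-04) and -2.39 ± 0.34 in DKO (adjusted p = 1.4e-04), measured against the same 3 control libraries. The C57BL/6 control, however, held 6.85, 9.66 and 14.5 CPM of Reg3b, which overlaps both knockouts. With the mean of both control lines as reference, the difference was -1.76 in CDK8KO and -1.31 in DKO, and both were called. CDK19KO stood at 18.2, 16.4 and 13.3 CPM, overlapping C57BL/6 (0.62 ± 0.37, adjusted p = 0.32).

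Reg3g stood at 71.1, 90.9 and 47.7 CPM in VillinCreERT2, at 36.4, 36.4 and 39.4 CPM in CDK8KO and at 129, 116 and 130 CPM in DKO. It was thus lower in CDK8KO (-0.90 ± 0.22, adjusted p = 0.0095) and higher in DKO (0.84 ± 0.21, adjusted p = 0.0055). When CDK8KO and VillinCreERT2 were fitted alone, the adjusted p in CDK8KO was 0.068, and against the mean of both controls the DKO difference was 0.51, under the fold cutoff. In CDK19KO Reg3g stood at 114, 136 and 124 CPM, among the C57BL/6 values of 89.4, 105 and 137 CPM (adjusted p = 0.64).

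Reg3a stood at 105, 120 and 126 CPM in VillinCreERT2, 82.0, 84.2 and 108 CPM in CDK8KO and 209, 193 and 177 CPM in DKO. The DKO difference was 0.72 ± 0.11 (adjusted p = 5.5e-05), and that of CDK8KO, -0.36 ± 0.11, was under the fold cutoff. These calls changed with the control: C57BL/6 organoids held 247, 302 and 312 CPM of Reg3a, and against the mean of both controls CDK8KO was at -1.00 and called while DKO was at 0.07 and not called. CDK19KO, at 254, 233 and 237 CPM, was not called against C57BL/6 (-0.25 ± 0.11, adjusted p = 0.14).

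Reg1 separated the lines most. It stood at 124, 125 and 171 CPM in VillinCreERT2, 53.1, 50.8 and 58.7 CPM in CDK8KO, 178, 129 and 240 CPM in DKO, 100, 79.0 and 84.1 CPM in CDK19KO and 11.8, 18.0 and 14.9 CPM in C57BL/6. Reg1 was called lower in CDK8KO (-1.37 ± 0.22, adjusted p = 9.4e-04) and higher in CDK19KO (2.55 ± 0.27, adjusted p = 7.4e-05), with no call in DKO (0.38 ± 0.21, adjusted p = 0.16). With the mean of both controls CDK8KO turned to 0.24 and was not called, and DKO stood at 1.99 and was called. Reg1 stood at 2.17 to 4.53 CPM at day 7 in the 4-OHT arm of the time course, another line of the DKO genotype, which was scaled separately and not tested against this one.

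Reg4 varied least, from 80.1 to 177 CPM over the 15 libraries. DKO held 80.7, 84.7 and 80.1 CPM and VillinCreERT2 115, 112 and 132 CPM, without overlap. The log2 fold change of -0.55 ± 0.08 had an adjusted p of 1.8e-06, but the fold of 1.46 was under the cutoff. Without replicate 2 of VillinCreERT2, or against the mean of both controls (-0.74), it passed. Reg4 was also lower in CDK19KO (-0.50 ± 0.07, adjusted p = 3.7e-05) and in CDK8KO (-0.20 ± 0.07, adjusted p = 0.041), both under the fold cutoff, and the CDK19KO difference passed without replicate 1 of C57BL/6.

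In counts, 3 of 5 members were called in CDK8KO, all lower, where 7.23% of genes were called and 4.34% were called lower. In CDK19KO 1 of 5 was called, beside 5.25% of genes, and in DKO 3 of 5, beside 19.4%. The DKO effect minus the sum of the single knockout effects was called for Reg3g (1.57 ± 0.30, adjusted p = 0.0015) and Reg3a (1.33 ± 0.15, adjusted p = 7.2e-06), 2 of 5 members beside 19.6% of genes. VillinCreERT2 cancels out of this difference, which rests on C57BL/6 as its control. In CDK8KO 4 of 10 enterocyte markers were lower and 1 of 11 Paneth markers was higher, and in DKO 7 of 11 Paneth markers were lower and 2 of 10 enterocyte markers higher. In CDK19KO 2 of 11 Paneth and 2 of 6 stem cell markers were lower, and of 13 enteroendocrine markers 3 were higher and 2 lower. Of 9 tested other secreted antimicrobials, 3 were higher and 2 lower in CDK8KO, 1 higher and 5 lower in DKO and 2 lower in CDK19KO. Regulators of secretory fate were lower in 5 of 6 in DKO and 1 of 6 in CDK19KO. Goblet cell markers were lower in 3 of 8 in CDK8KO and 4 of 8 in DKO, and stem cell markers in 5 of 6 in DKO. Enteroendocrine markers, of cells known to make Reg4, were lower in 7 of 13 in DKO, with a sum of 286 to 321 CPM beside 437 to 473 CPM in VillinCreERT2. Markers of the distal small intestine were lower than in VillinCreERT2 in 6 of 7 in CDK8KO, with a median log2 fold change of -1.27, in 4 of 7 in DKO and in 5 of 7 in C57BL/6, and in CDK19KO 4 of 7 were higher than in C57BL/6. Their sum was 531 to 1018 CPM in VillinCreERT2 and 211 to 443 CPM over the other 4 lines, so VillinCreERT2 stood apart in these markers as in Reg3b. Proximal markers were lower than in VillinCreERT2 in 3 of 7 in CDK8KO (median -0.49) and in 2 of 7 in C57BL/6. In DKO 1 was higher and 1 lower, and in CDK19KO 1 was higher than in C57BL/6. The proximal sum was 2187 to 2898 CPM in VillinCreERT2, 2246 to 3035 CPM in CDK8KO and 3283 to 3436 CPM in DKO. The part of cell types and of gut region in the Reg values was not tested. Of 15 tested cytokine receptor and STAT3 pathway genes, 2 were called lower in CDK8KO, Il22ra1 (-0.66), the specific subunit of the IL-22 receptor, and Socs3 (-0.70). In DKO 2 were called lower, Il6ra (-1.34) and Il22ra1 (-1.03), and 1 higher, with a median of 0.02. Il22ra1 was also lower in C57BL/6 than in VillinCreERT2 (-1.92), and no gene of that list was called in CDK19KO by edgeR, with an unadjusted p under 0.05 for 5. Of 15 tested microbial sensing genes, 2 were called higher in CDK8KO, 2 in DKO and 1 in CDK19KO, and none lower. Of 7 tested genes of the IL-22 and IL-17 response, 2 were called lower in CDK8KO (median -0.44), and in DKO 3 were called lower and 1 higher (median -0.62). The sum of that list went the other way, at 2439 to 2476 CPM in CDK8KO and 3377 to 3521 CPM in DKO beside 2017 to 2186 CPM in VillinCreERT2, and most of it was Pigr, an antibody carrier, at 2346 to 2393, 3281 to 3419 and 1888 to 2075 CPM. Acinar markers summed to 46.1 to 51.3 CPM in CDK8KO, 40.6 to 49.4 CPM in DKO and 21.6 to 32.9 CPM in VillinCreERT2, with 1 of 3 tested called in each direction in both knockouts. In CDK19KO, where Reg1 was called higher, they summed to 21.1 to 23.6 CPM beside 30.8 to 47.8 CPM in C57BL/6, with 1 of 3 called lower. The part of these lists in the Reg values was not tested.

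**Figure D2:**
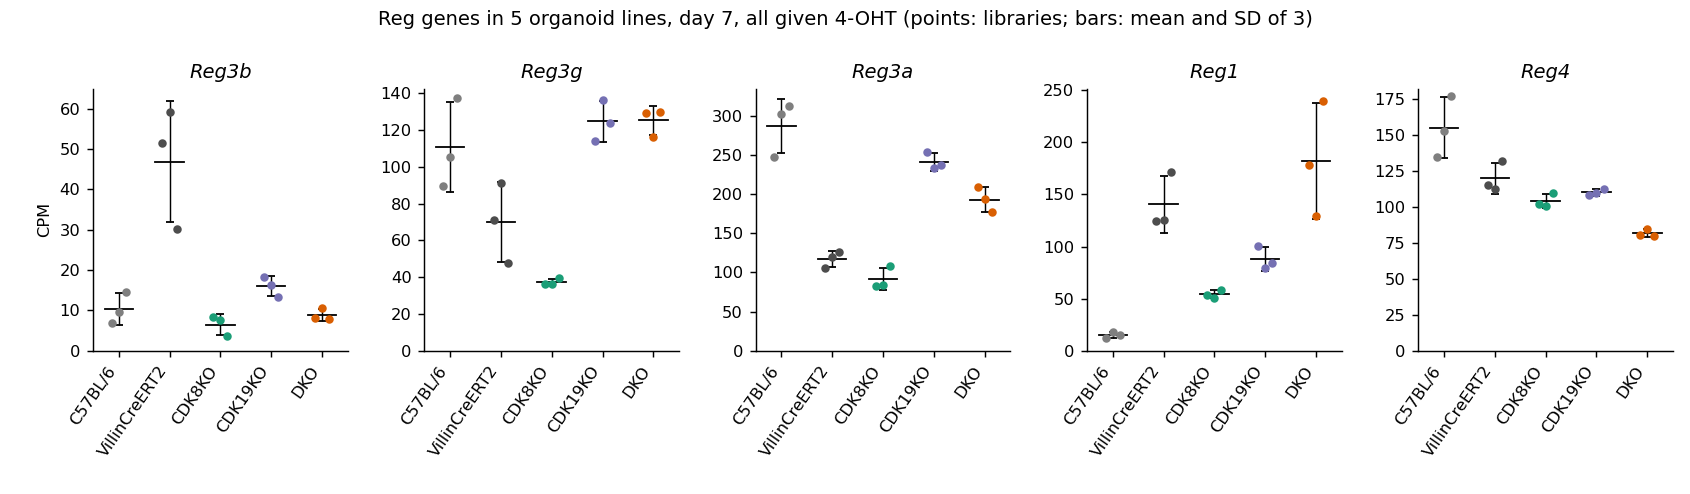
CPM of each member in the 5 organoid lines at day 7, all given 4-OHT (points are libraries, bars the mean and SD of 3, axes from 0). Reg3b is highest in VillinCreERT2, at 30.0 to 59.1 CPM, and Reg1 in C57BL/6 stays at 11.8 to 18.0 CPM, below every other line.

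Wnt3-CM gave the cells Wnt ligand from outside, at day 10. The same 4-OHT exposure moved the members apart here: Reg3a rose, Reg1, Reg3b and Reg4 fell, and Reg3g was not called. This was 4 of 5 members beside 16.9% of 13745 genes. Reg3a stood at 6.78, 6.93 and 9.90 CPM in EtOH and at 25.9, 22.1 and 28.1 CPM in 4-OHT, 3.22-fold higher (log2 fold change 1.69 ± 0.13, adjusted p = 1.2e-08). Reg3b stood at 9.94, 13.5 and 21.2 CPM in EtOH and at 4.87, 4.33 and 5.32 CPM in 4-OHT, without overlap (-1.62 ± 0.30, adjusted p = 0.0043). These close relatives of 1 gene cluster thus moved in opposite directions in the same cultures.

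Reg4 stood at 215, 257 and 251 CPM in EtOH and at 135, 125 and 154 CPM in 4-OHT in Wnt3-CM (-0.81 ± 0.08, adjusted p = 1.3e-07). Reg1 stood at 1.05, 1.89 and 2.69 CPM in EtOH and at 0.248, 0.778 and 0.919 CPM in 4-OHT, the latter resting on 5 to 19 counts (-1.52 ± 0.40, adjusted p = 0.0058). Reg3g stood at 31.4, 44.5 and 63.2 CPM in EtOH and at 71.7, 63.5 and 70.6 CPM in 4-OHT. No 4-OHT library of Reg3g lay below the highest EtOH one, but the adjusted p was 0.16 by edgeR. It was 0.0040 by limma-voom, and 1.2e-04 by edgeR without replicate 3 of EtOH.

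The effect of 4-OHT differed between Wnt3-CM and the time course at day 10 for Reg3a (1.11 ± 0.29, adjusted p = 0.017) and for Reg3b (-1.39 ± 0.32, adjusted p = 0.0069), 2 of 5 members beside 13.3% of genes. Without replicate 1 or 2 of EtOH in Wnt3-CM the Reg3a call was lost, at adjusted p values of 0.052 and 0.0502. For Reg4 the difference was -0.10 ± 0.12 (adjusted p = 0.58), with -0.81 in Wnt3-CM and -0.70 in the time course. Vehicle levels stood far apart, with Reg3a at 6.78 to 9.90 CPM in Wnt3-CM and 82.1 to 124 CPM in the time course at day 10, but these experiments were scaled separately and the levels were not tested. In Wnt3-CM 7 of 10 enterocyte markers were called higher in 4-OHT and 1 lower, all 11 Paneth markers were called lower and so were 5 of 8 goblet markers and 6 of 9 other secreted antimicrobials, of which 1 was called higher. Proximal small intestine markers summed to 399 to 471 CPM in EtOH and 776 to 906 CPM in 4-OHT, with 3 of 5 tested called higher and 1 lower, and of 6 distal markers 3 were called higher and 2 lower. Of 7 tested genes of the IL-22 and IL-17 response, Pigr was called higher (1.11) and 3 were called lower, with a median of -0.46, while the sum was 1015 to 1072 CPM in EtOH and 1774 to 2209 CPM in 4-OHT. Of 14 pathway genes 1 was called, Jak2 (-0.67), and of the microbial sensing genes 3 were called. Acinar markers summed to 15.8 to 18.4 CPM in EtOH and 31.7 to 36.2 CPM in 4-OHT, with 2 of 3 called higher. The part of these lists in the Reg values was not tested.

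The D173A line asked what a kinase-dead CDK19 leaves when Cdk8 is deleted. Of the 5 members 2 were called, beside 12.3% of 15457 genes, and they went in opposite directions. Reg3b stood at 102, 99.4 and 92.2 CPM in EtOH and at 211, 177 and 214 CPM in 4-OHT, 2.05-fold higher (log2 fold change 1.04 ± 0.08, adjusted p = 1.7e-05). Reg4 stood at 203, 186 and 185 CPM in EtOH and at 120, 98.4 and 115 CPM in 4-OHT (-0.78 ± 0.08, adjusted p = 1.0e-04). Both were cleanly separated by group.

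Reg3g overlapped between the arms in D173A, at 244, 288 and 275 CPM in EtOH and 237, 274 and 284 CPM in 4-OHT (-0.02 ± 0.09, adjusted p = 0.89). Its effect differed from that in the time course at day 7 by -1.87 ± 0.27 (adjusted p = 0.0011), the only call among the 5 members, where 11.1% of genes were called. Reg3a stood at 207, 244 and 235 CPM in EtOH and at 230, 352 and 363 CPM in 4-OHT, and Reg1 at 193, 306 and 272 CPM and at 205, 476 and 532 CPM. In both genes replicate 1 of 4-OHT lay among the EtOH libraries, and without it Reg3a (0.64, adjusted p = 1.4e-04) and Reg1 (0.97, adjusted p = 0.031) were called. The share of all genes called without that library is not given here. For Reg4 the D173A effect minus that of the time course was 0.06 ± 0.15 (adjusted p = 0.84). In this line 9 of 11 Paneth markers were called lower and Lyz1 higher, 6 of 10 enterocyte markers were called higher, and of 13 enteroendocrine markers 5 were called in each direction with a summed level of 818 to 881 CPM in EtOH and 410 to 432 CPM in 4-OHT. Of 8 goblet markers 2 were called higher and 3 lower, with a sum of 5143 to 5843 CPM in EtOH and 4273 to 5051 CPM in 4-OHT. Of 10 other secreted antimicrobials 3 were called higher and 4 lower (median -0.08), with Mptx1 at -3.48, Ang4 at -2.18 and Pla2g2a at -1.80, while their sum was 4815 to 5020 CPM in EtOH and 5902 to 6714 CPM in 4-OHT. Of 6 stem cell markers 5 were called lower, and of 7 proximal markers 2 were called higher, with a sum of 1958 to 2124 CPM in EtOH and 2771 to 4027 CPM in 4-OHT. The IL-22 and IL-17 response summed to 2579 to 2827 CPM in EtOH and 3622 to 4397 CPM in 4-OHT, mostly Pigr at 2441 to 2712 CPM and 3458 to 4248 CPM, and of 8 tested genes Duox2 (1.89) was called higher and Fut2 (-0.71) lower. Of 15 pathway genes 1 was called, Il6st (0.64), and of the microbial sensing genes 2 were called. Acinar markers summed to 35.5 to 41.4 CPM in EtOH and 145 to 169 CPM in 4-OHT, without overlap, and of 3 tested 1 was called, Ctrb1 (2.20), a digestive protease precursor, with a list median of -0.19. The part of these lists in the Reg values was not tested.

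**Figure D3:**
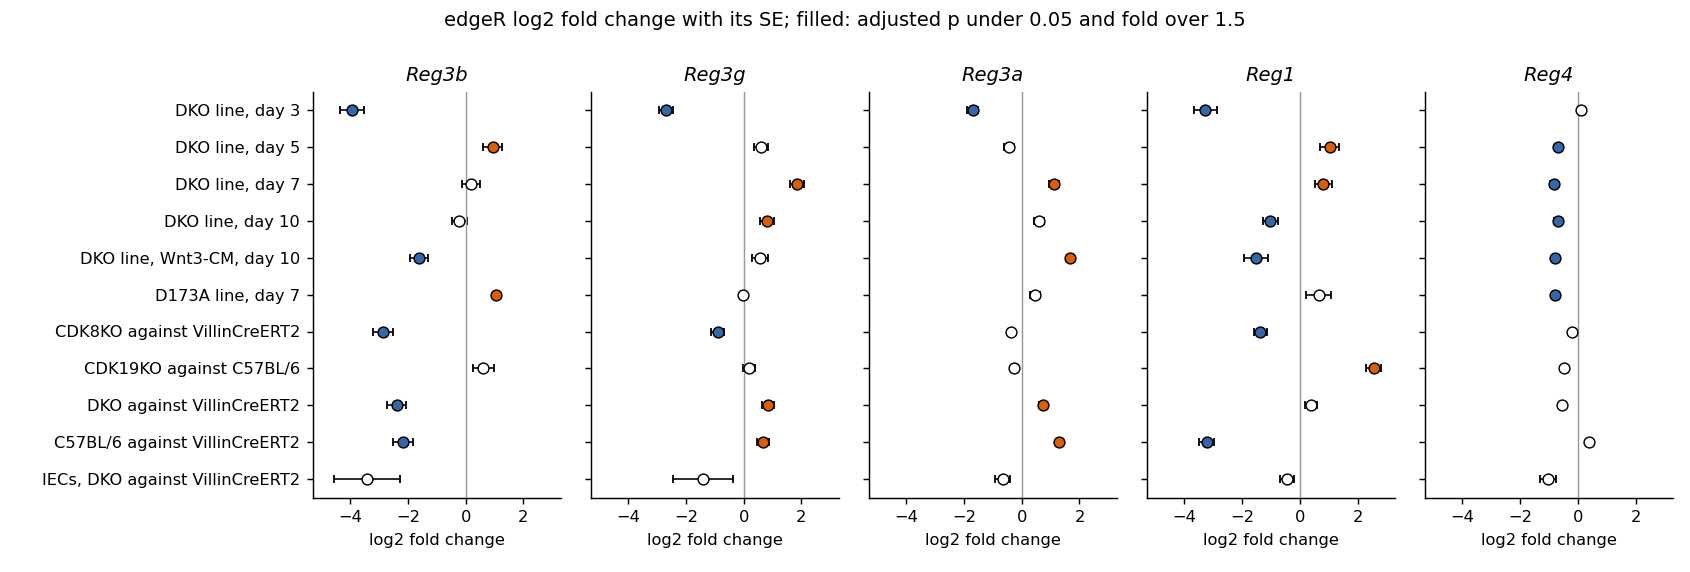
edgeR log2 fold change of each member with its SE in each comparison, filled where the adjusted p was under 0.05 and the fold over 1.5. Reg4 is filled and negative at days 5, 7 and 10, in Wnt3-CM and in D173A, while Reg3b ranges from -3.93 at day 3 to 1.04 in D173A.

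IECs showed what the members did in the animal. In 3 libraries per genotype, 1 DKO library decided the outcome. With all 6 libraries no member was called by edgeR, beside 1.5% of 15182 genes, while 3 members had an unadjusted p under 0.05. DESeq2 called Reg3b and Reg4 and limma-voom none, and the shares of all genes called by these tools are not given here. Replicate 2 of DKO was the only one of the 6 with Ddx3y, at 30.2 CPM, and without Xist, at 1.11 CPM beside 113 to 169 CPM in the other 5, so it came from a male and they from females. Without it, Reg3b, Reg3g and Reg3a were called lower, 3 of 5 members, beside 3.69% of 15493 genes. Sex, animal and library cannot be told apart for this mouse.

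Reg3b stood at 2962, 5787 and 7922 CPM in VillinCreERT2 IECs and at 115, 1295 and 147 CPM in DKO. Every DKO library was below every control, but the spread within DKO was wide, and the log2 fold change of -3.42 ± 1.14 had an adjusted p of 0.20. Without replicate 2 of DKO it was -5.41 ± 0.55 (adjusted p = 0.027). Reg3g stood at 1821, 3671 and 4433 CPM in VillinCreERT2 and at 259, 3079 and 415 CPM in DKO, so that replicate 2 lay among the controls. Its log2 fold change was -1.40 ± 1.03 (adjusted p = 0.49) with all libraries and -3.30 ± 0.50 (adjusted p = 0.042) without that one.

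Reg3a stood at 84.6, 83.1 and 84.3 CPM in VillinCreERT2 IECs and at 42.3, 77.6 and 39.2 CPM in DKO, with replicate 2 again the nearest to the controls. The log2 fold change was -0.66 ± 0.26 (adjusted p = 0.23), and -1.05 ± 0.08 (adjusted p = 0.017) without it. Reg4 behaved differently from these, at 128, 60.3 and 85.5 CPM in VillinCreERT2 and 49.0, 39.7 and 44.4 CPM in DKO. Replicate 2 of DKO was the lowest of all for Reg4, and the log2 fold change was -1.04 ± 0.27 (adjusted p = 0.12), or -1.25 (adjusted p = 0.011) without replicate 2 of VillinCreERT2. Reg1 stood at 654, 818 and 779 CPM in VillinCreERT2 and 359, 672 and 638 CPM in DKO and overlapped (-0.43 ± 0.24, adjusted p = 0.36).

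Cells other than epithelium were present in the IEC samples. The summed level of 8 immune cells markers was 1550, 823 and 838 CPM in DKO and 66.5, 645 and 95.1 CPM in VillinCreERT2, and that of 7 mesenchyme markers was 966, 602 and 455 CPM in DKO and 12.8, 883 and 55.1 CPM in VillinCreERT2. Pancreatic acinar markers summed to 17.2 to 119 CPM in DKO and 4.60 to 14.0 CPM in VillinCreERT2. None of these 3 lists had a gene called by edgeR, with an unadjusted p under 0.05 for 5 immune, 8 acinar and no mesenchyme markers. Paneth markers summed to 1299, 2576 and 1291 CPM in DKO and to 4538 to 7487 CPM in VillinCreERT2, with 5 of 11 called lower, among them Mmp7 (-2.38) and Itln1 (-2.07). Replicate 2 of DKO was the highest of its group in Paneth markers too, with Lyz1 at 1177 CPM beside 332 and 353 CPM. Enterocyte markers overlapped, at 38191 to 45903 CPM and 39863 to 42293 CPM, and none was called, with an unadjusted p under 0.05 for 4. Goblet cell markers did not overlap, at 5237 to 7516 CPM in DKO and 12531 to 14885 CPM in VillinCreERT2, with 3 of 9 called lower. Stem cell markers, at 315 to 518 CPM and 751 to 1049 CPM, had 2 of 6 called lower. Enteroendocrine markers overlapped, at 369 to 466 CPM and 371 to 471 CPM, with 1 called and an unadjusted p under 0.05 for 7. Distal small intestine markers, at 686 to 1109 CPM and 1206 to 1403 CPM, did not overlap either, with 2 of 7 called lower. Proximal small intestine markers were lower in every DKO library as well, at 3645 to 5060 CPM beside 5279 to 5938 CPM, and so were 7 general epithelium markers, at 9753 to 10824 CPM beside 11227 to 11758 CPM, with no gene of either list called by edgeR and an unadjusted p under 0.05 for 2 and 3. Other secreted antimicrobials summed to 5484 to 6438 CPM in DKO and 10517 to 12154 CPM in VillinCreERT2, with 1 of 12 called lower. The part of these cells, regions and lists in the Reg values was not tested. No gene of the cytokine receptor and STAT3 pathway list was called in IECs by edgeR, with an unadjusted p under 0.05 for 5 of 17, and of the IL-22 and IL-17 response Fut2 alone was, at 1.53. The summed level of that response list was lower in every DKO library, at 4688 to 6874 CPM, than in every VillinCreERT2 library, at 7946 to 8120 CPM, and most of it was again Pigr, at 3863 to 6161 CPM and 7200 to 7452 CPM (adjusted p = 0.21). The median log2 fold change over the 13 genes tested was 0.69, so it differed in sign from the sum. No microbial sensing gene was called in IECs by edgeR or had an unadjusted p under 0.05.

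**Figure D4:**
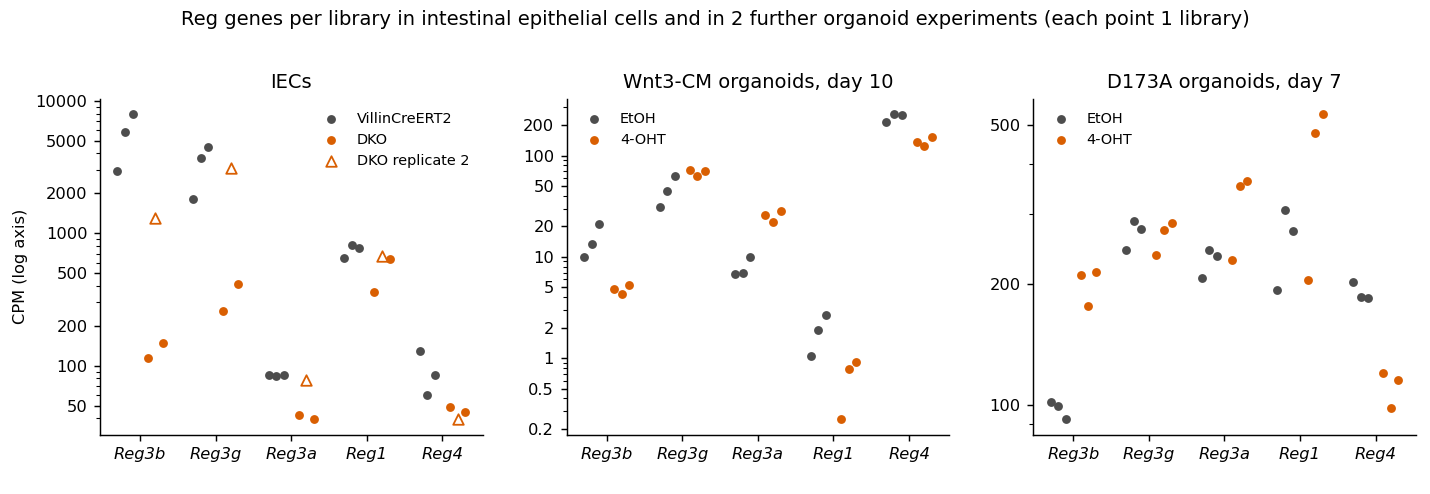
CPM per library of the 5 members (log axis, 1 point per library) in IECs of VillinCreERT2 and DKO mice, in Wnt3-CM at day 10 and in D173A organoids at day 7. One DKO mouse stands at 1295 CPM of Reg3b and 3079 CPM of Reg3g, apart from the other DKO mice at 115 to 147 and 259 to 415 CPM.

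Across the 24 time course libraries the log2 CPM of Reg1 and Reg3b had a Pearson r of 0.90, which was 0.33 across the 15 day 7 libraries of 5 lines. For Reg3a and Reg3g r was 0.71 and 0.85. Reg4 had r from -0.41 to 0.20 with the other members in the time course. Outside the Reg family, the genes with patterns most like each member in the time course, of 11593 compared, were Mogat2 for Reg3a (r = 0.97, and 0.67 across the day 7 lines), Naprt for Reg3g (0.95 and 0.75), Mbd3 for Reg4 (0.93 and 0.55), Fam213b for Reg3b (0.92 and 0.68) and Prkcz2 for Reg1 (0.87 and 0.18). Mogat2 makes diacylglycerol in fat-absorbing enterocytes, and Naprt works in NAD synthesis. The points share groups of 3 cultures of 1 line, and these values are descriptions only.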

How the data were processed

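PolyA RNA was sequenced as 100 bp paired-end reads. The authors deposited 4 tables of raw counts per gene, and the submitters' processing notes name STAR 2.5.2, featureCounts, Subread 1.6.3 and mm10. The settings for strand and for reads with several matches are not given in the sources used here. Groups came from the labels. Of the count columns, 6 could not be matched to a sample and were not used, so Cdk19wt/D173A and Cdk19ko/D173A IECs were not analysed here. D173A columns were matched by elimination. Counts were tested in R 4.3.3 with edgeR 4.0.16 (filterByExpr, TMM, robust quasi-likelihood F test, Benjamini-Hochberg adjustment over all genes tested), with a call at adjusted p under 0.05 and fold over 1.5. Each experiment was fitted by itself, and Wnt3-CM or D173A jointly with the matching day for differences of effects. CPM used TMM library sizes. Alternatives used limma 3.58.1 (limma-voom) and DESeq2 1.42.0. The code was tested on simulated data. The members, lists and tests were chosen with earlier results of these data known. Named genes were all 5 members, at most 3 called genes per list with the largest change, and the genes outside the Reg family with the highest correlation to each member among those averaging at least 50 counts, with a prior count of 2. Some genes were named outside this rule, among them Pigr, Chga, Lyz2, Xist, Ddx3y and Cdk8. The p-values measure the spread between cultures of 1 line, or between mice for IECs.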

Additional observations from a re-analysis of the deposited data

Results flagged for a closer look

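Each of the following is a difference between effects that was itself tested by edgeR and called. In the time course, the effect of 4-OHT changed from day 3 to day 5 by 4.87 for Reg3b, 4.31 for Reg1, 3.28 for Reg3g, 1.24 for Reg3a and -0.80 for Reg4 on the log2 scale. From day 3 to day 10 the change was 3.71 for Reg3b, 3.51 for Reg3g, 2.27 for Reg3a, 2.26 for Reg1 and -0.82 for Reg4. From day 7 to day 10 it was -1.84 for Reg1 and -1.03 for Reg3g. In the day 7 lines the DKO effect minus the sum of the single knockouts was 1.33 for Reg3a and 1.57 for Reg3g. The effect in Wnt3-CM minus that in the time course was 1.11 for Reg3a and -1.39 for Reg3b, and the effect in D173A minus that in the time course was -1.87 for Reg3g. Groups of 3 are too small for a test of single outlying libraries.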

How the results depend on the processing

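Of 587 member values under other settings, 559 kept direction and call, 10 lost a call, 17 gained one and 1 turned (Reg1 in CDK8KO, 0.24 with the mean of both controls). With 1 library left out, 662 of 720 kept both, 26 lost a call, 21 gained one and 11 turned. Upper quartile normalization changed no call. Replicate numbers did not pair the samples in the lines, the time course and IECs, with same-number correlations as low as -0.07, -0.14 and -0.41. In both Wnt3-CM and D173A the lowest was 0.095, just under the 0.1 that every pair had to pass. Median same-number correlations there were 0.13 and 0.19, beside -0.11 and -0.18 for other numbers, so pairing remained undecided in these 2 experiments. A replicate block, run in the lines, the time course and IECs, changed no member call there (3 members called in CDK8KO, as without it). In Wnt3-CM and D173A, whose columns carry numbers that the labels do not tie to a sample, a block on the column number was added after seeing the data, and 4 and 2 members were called, as without it. The differences from the time course had no such fit.

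Requiring at least 10 counts in every library left Reg1 and Reg3b untested in the time course, so that 2 members were called at day 3, 3 from day 3 to day 5, 1 from day 7 to day 10, 3 from day 3 to day 10 and 2 in EtOH. With no filter on low counts, 1 was called from day 7 to day 10, 1 in Wnt3-CM minus course and 3 in D173A minus course. With only the groups compared, 1 was called from day 7 to day 10. DESeq2 called 2 and limma-voom 3 in D173A minus course, and DESeq2 2 in IECs. The cause was not tested.

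With 1 library left out, the members called ranged from 1 to 2 in CDK19KO, 1 to 4 at day 5, 1 to 3 from day 7 to day 10, 2 to 4 in D173A, 1 to 2 in Wnt3-CM minus course, 1 to 2 in D173A minus course and 0 to 3 in IECs. These ranges, and the counts under other settings, are given without the share of all genes called in the same fits. Values that turned were none of them called, and ranged from -0.47 to 0.050 for Reg3b in DKO minus the sum, -0.21 to 0.42 for Reg3b at day 7, -0.11 to 0.055 for Reg3g in D173A, -0.47 to 0.032 for Reg3g in Wnt3-CM minus course, and, in D173A minus course, -0.44 to 0.15 for Reg1 and -0.041 to 0.17 for Reg4.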
